A study of Rattus norvegicus with 9 samples.

Results

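The genes described here encode 10 proteins that the liver secretes into blood plasma: carriers and acute-phase proteins. They were chosen by name as Alb, Ttr, Ahsg, Serpina1, A2m, Orm1, Hp, Hpx, Crp and Lcn2, by a rule that uses no measured value, though with earlier results of these data known. Of these, 9 were found by symbol among the 32883 genes of the deposited liver table, and Ahsg (fetuin-A) was not analysed here. The livers of 9 male Sprague-Dawley rats gave 1 mRNA library each, 3 per group. Normal control rats (N1, N3 and N12) were on a normal diet. DEN model rats (M13, M17 and M24) were injected into the abdomen each week with 0.01% diethylnitrosamine (DEN), a carcinogen of the liver, over a 16 week experiment. PZH administration rats (G27, G28 and G42) had the same DEN injections and were also given PZH (Pien-Tze-Huang), a traditional Chinese medicine. Groups follow the first letter of the rat's name. M rats carry PZH in their treatment tag, as G rats do, so tag and name disagree for the DEN model group. Which PZH dose each G rat had, the week in which each rat was killed, the rats' age and whether tumour nodules were part of the tissue are not given in the sources used here. Each library is a separate rat, and all values are of bulk liver, in which fewer cells of a type and less RNA per cell cannot be told apart.

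Plasma proteins are made mainly by hepatocytes, which release them into the blood continuously. During inflammation, cytokines of the IL-6 and IL-1 families reach the hepatocyte and change this output within hours, through the transcription factors STAT3, C/EBP beta and NF-kB. Proteins that go up are called positive acute-phase proteins, and those that go down, to which albumin, transthyretin and fetuin-A belong, are called negative. Species differ in their main responders: alpha-2-macroglobulin (A2m) is the classical strong responder of the rat, scarce in healthy adults, whereas C-reactive protein (Crp) is abundant in healthy rats and responds weakly. Hepatocytes are the main source of these proteins in the liver. Lcn2 is an exception, since neutrophils and injured epithelial cells make it too.

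To show what lies before genes of each kind, stretches upstream of 4 of them are printed from RefSeq promoter windows on build GRCr8: Alb (negative, chr14:17907044-17907129, minus strand), Orm1 (positive, chr5:81788359-81788508, plus strand), Crp (positive but weak in the rat, chr13:87693912-87694061, plus strand) and Lcn2 (positive and not limited to hepatocytes, chr3:36081852-36081930, minus strand). RefSeq windows were found for 7 of the 9 measured genes, and the 250 bases before each start were searched on both strands. The letters searched were TTCNNNGAA (STAT3), CTGGGAA (an IL-6 response element), TTGCNNAA (C/EBP), the NF-kB motif of 10 letters, CCAAT and TATAAA. Capitals mark matches to the first 4 of these, and bases inside an annotated gene were left out.
Alb: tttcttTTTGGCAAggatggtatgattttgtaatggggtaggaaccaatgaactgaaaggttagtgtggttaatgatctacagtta
Orm1: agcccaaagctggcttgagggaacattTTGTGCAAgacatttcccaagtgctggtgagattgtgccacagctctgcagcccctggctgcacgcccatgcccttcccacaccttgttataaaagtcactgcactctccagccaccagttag
Crp: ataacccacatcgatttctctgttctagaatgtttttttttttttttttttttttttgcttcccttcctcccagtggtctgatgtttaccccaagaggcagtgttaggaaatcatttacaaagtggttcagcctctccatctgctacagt
Lcn2: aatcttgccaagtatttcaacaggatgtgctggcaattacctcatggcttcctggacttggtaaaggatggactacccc
In the Alb stretch the C/EBP letters began 144 bases before the listed start. In Orm1 the C/EBP letters began 123 bases before the start, and TATAAA 35 bases before it. The Crp stretch held none of the 4 motifs marked by capitals. For Lcn2, C/EBP letters at 191 bases and CTGGGAA at 245 bases before the listed start lay outside the printed stretch. Hpx held C/EBP letters at 200 bases, and the Ttr window, which lies inside the annotated gene, held CTGGGAA at 238 bases. The letters of STAT3 and of NF-kB were found in none of the 7 windows. Among all 33469 rat promoters of the same length, 7.67% held the STAT3 letters, 9.56% CTGGGAA, 9.22% the C/EBP letters, 0.314% the NF-kB letters, 34.02% CCAAT and 12.9% TATAAA. These matches describe letters only.

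Library totals were 16115709 to 16412520 counted reads in normal control rats, 15259441 to 16641954 in DEN model rats and 14922973 to 27161496 in PZH administration rats, of which G27 was the deepest. Values of 1 gene across rats are given as CPM, a count rescaled to a standard library size with factors from the trimmed mean of M values (TMM). The TMM factors were 0.731 to 0.799 in normal control, 1.21 to 1.58 in DEN model and 0.863 to 0.941 in PZH administration rats, so this scaling differed by group. A floor of 3 counts was 0.125 to 0.252 CPM and covers counting error only, and all 9 genes lay above it in every rat. The 9 genes together took 10.3% to 11.8% of all counts in normal control rats, 3.26% to 6.78% in DEN model rats and 8.98% to 12.5% in PZH administration rats, with no overlap between DEN model rats and the others.

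**Figure D1:**
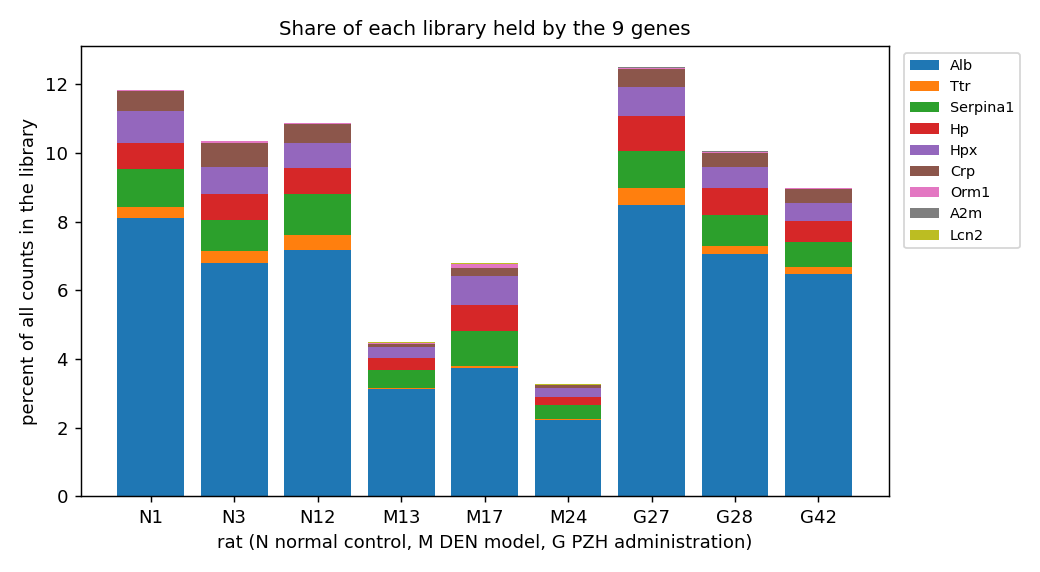
Stacked bars give the percent of all counts in each library, by rat, that fell on each of the 9 genes. The bars of M13, M17 and M24 end between 3.26% and 6.78%, below all 6 other rats, and Alb is the tallest part of every bar.

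Levels of different genes were compared per transcript length, as the deposited FPKM. In normal control liver Alb, the main oncotic and carrier protein of plasma, had a mean of 35561 FPKM ± 3232 (SD, n = 3). Hp (haptoglobin, which binds free haemoglobin) followed at 6413 ± 70.7, Serpina1 (alpha-1-antitrypsin, the inhibitor of neutrophil elastase) at 5605 ± 791, Hpx (haemopexin, which binds haem) at 5248 ± 686 and Ttr (transthyretin, a carrier of thyroxine and of retinol-binding protein) at 5189 ± 633. Crp stood at 1479 ± 202 and Orm1 (orosomucoid, a binder of basic drugs) at 339 ± 71.2. Far below were Lcn2 (lipocalin-2, which binds bacterial siderophores) at 1.38 ± 0.538 and A2m (a trap for proteases) at 0.353 ± 0.0827 FPKM. Neighbours whose rats overlapped were Serpina1 with Hpx and Hpx with Ttr, and every other step in this order separated the rats completely.

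In DEN model rats the order by mean FPKM was Alb (14645), Hp (3759), Serpina1 (3349), Hpx (3079), Ttr (604), Orm1 (556), Crp (318), Lcn2 (116) and A2m (14.97). Hp, Serpina1 and Hpx overlapped in turn, and so did Ttr, Orm1 and Crp, the last 2 in exchanged places compared with normal control liver. After PZH the order was Alb (35479), Hp (6796), Serpina1 (4735), Ttr (4447), Hpx (4237), Crp (1056), Orm1 (364), A2m (17.4) and Lcn2 (11.2). Here the ranges of Hp, Serpina1, Ttr and Hpx overlapped in turn, and A2m overlapped Lcn2.

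**Figure D2:**
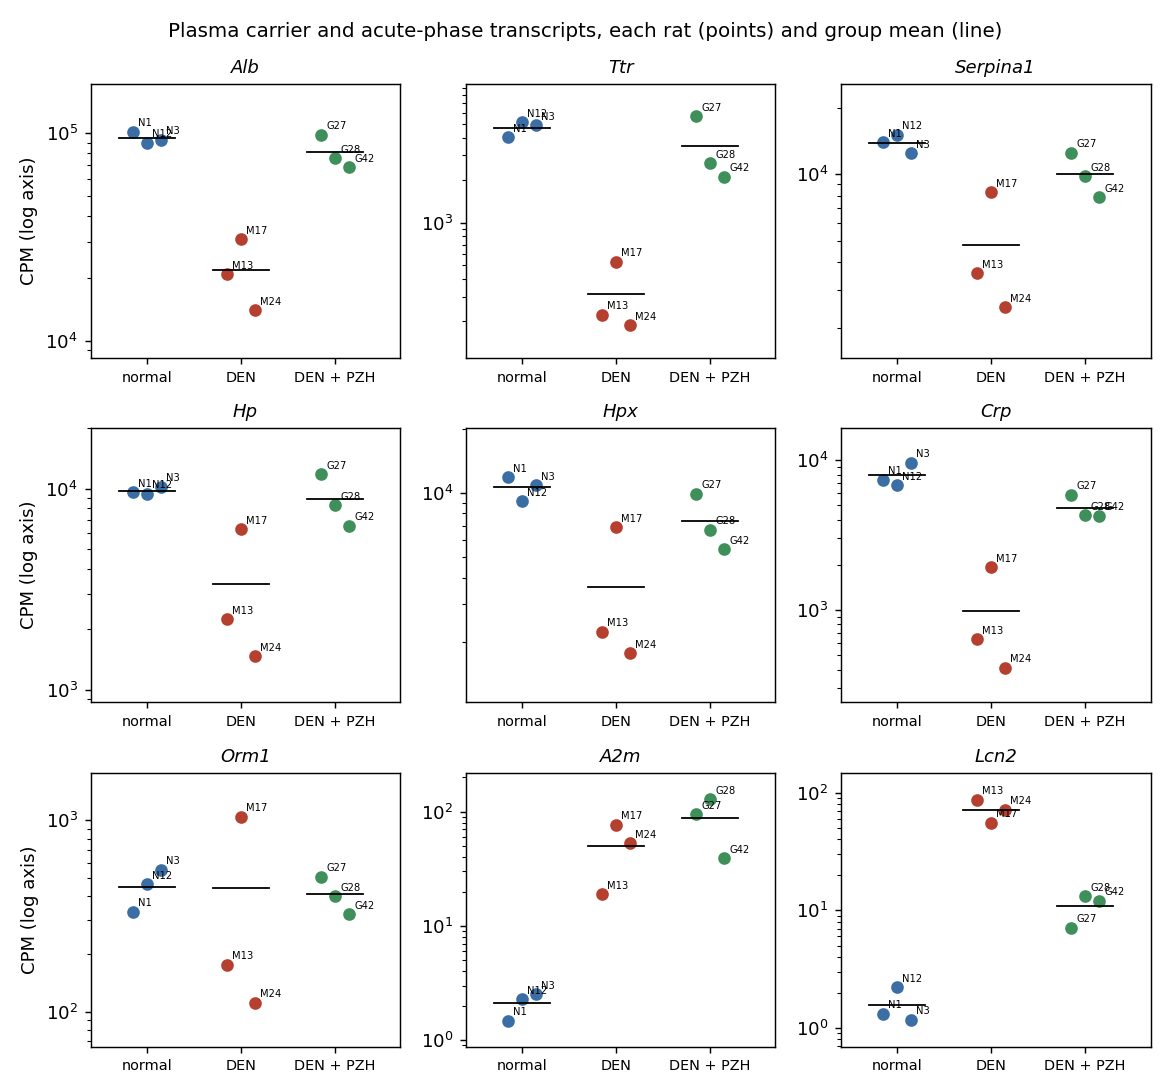
Each panel plots 1 gene in CPM on a log axis, with a labelled point per rat and a line at the group mean of 3 rats. In the panels of Hp, Hpx, Serpina1 and Orm1, rat M17 lies well above M13 and M24, with Orm1 at 1041 CPM in M17 against 176 and 111 CPM.

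The first comparison asked which of these mRNAs differ between the livers of DEN model and normal control rats. Lcn2 and A2m rose, 45.5-fold and 23.9-fold, while Ttr fell 14.8-fold, Crp 7.90-fold and Alb 4.26-fold. In CPM, Serpina1, Hp and Hpx were lower in every DEN model rat than in any normal control rat but did not pass the test. By FPKM, which uses no TMM factors, M17 was above the lowest normal control rat in each of them. Its values were 5232 against 4739 (N3) for Serpina1, 6488 against 6343 (N3) for Hp and 5332 against 4663 (N12) for Hpx. Orm1 had equal means. The negative and positive classes thus did not separate by direction: both measured negative genes fell, and of the 7 positive genes 2 rose, 1 fell and 4 did not pass. Genes counted as called when the adjusted p from edgeR's quasi-likelihood test (3 rats against 3) was under 0.05, adjustment following Benjamini and Hochberg across the 14255 genes tested.

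By this rule 2 of the 9 genes were higher and 3 lower, against 25.3% and 20.5% of all genes tested, 45.8% in all. By the study's own thresholds (unadjusted p under 0.001 and a log2 fold change beyond 2 in either direction) 3 of 9 were called: 2 higher (Lcn2 and A2m) and 1 lower (Ttr). Over all genes these thresholds called 12.3%, with 8.81% higher and 3.49% lower. In 8 of the 9 genes the DEN model and normal control rats did not overlap in CPM, as in 58.8% of all genes. The 9 genes had a median log2 fold change of -1.53, against 0.03 over all genes.

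Among negative acute-phase genes, Alb (ENSRNOG00000002911, chromosome 14, 19176277-19191863 in the coordinates of the authors' file, whose build is not given in the sources used here) was read at 101828, 92888 and 89998 CPM in N1, N3 and N12. It was at 21002, 30787 and 14098 CPM in M13, M17 and M24. The groups are far apart, and the DEN model rats differ among themselves by up to 2.18-fold. The log2 fold change was -2.09 (SE 0.69, 95% interval -3.67 to -0.51, adjusted p = 0.0367). This call was lost when any 1 of N1, N3, N12, M13 or M24 was left out (adjusted p from 0.0692 to 0.178) and in limma on the deposited FPKM (adjusted p = 0.147), and it held without M17.

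Ttr (ENSRNOG00000016275, chromosome 18, 15532963-15540177) fell further. Its CPM was 4050.3, 4909 and 5138 in N1, N3 and N12 against 224, 529 and 188 in M13, M17 and M24. Even the highest DEN model rat, M17, was far under the lowest normal control rat. On the log2 scale the change was -3.89 (SE 0.50, 95% interval -5.04 to -2.74, adjusted p = 0.000666).

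Of the abundant positive genes, Crp (ENSRNOG00000000053, chromosome 13, 91054974-91093713), a pentraxin that marks microbes and dying cells for complement, also fell. The 3 normal control rats had 7379.8, 9608 and 6770.4 CPM (N1, N3, N12), and the DEN model rats 639, 1922 and 411 CPM (M13, M17, M24). The groups did not overlap, and M17 was again the highest of its group. Crp had a log2 fold change of -2.98 (SE 0.63, 95% interval -4.41 to -1.55, adjusted p = 0.00543).

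Serpina1 (ENSRNOG00000032669, chromosome 6, 127610243-127632265) was at 13966, 12441 and 15115 CPM in N1, N3 and N12 and at 3553, 8269 and 2501 CPM in M13, M17 and M24. Hp (ENSRNOG00000014964, chromosome 19, 42097995-42100804) was at 9625, 10239 and 9471 CPM and at 2238, 6305 and 1469 CPM in the same rats. For Hpx (ENSRNOG00000018257, chromosome 1, 170423483-170431073) the values were 11827, 10875 and 9143 CPM against 2234, 6876 and 1768 CPM. In all 3 genes M13 and M24 were low and close to each other, whereas M17 came near the normal control range. Fitted log2 fold changes were -1.52 for Serpina1 (SE 0.55, adjusted p = 0.0511), -1.53 for Hp (SE 0.58, adjusted p = 0.0599) and -1.53 for Hpx (SE 0.59, adjusted p = 0.0611). Their 95% intervals ran from -2.77 to -0.26, from -2.86 to -0.20 and from -2.87 to -0.19. With M17 left out they were -2.18, -2.38 and -2.39, with adjusted p of 0.00135, 0.000812 and 0.000691, all called. With any 1 other rat left out none was called (adjusted p from 0.0813 to 0.2165 in edgeR). Library totals gave -0.74, -0.77 and -0.77 (adjusted p from 0.123 to 0.141), not called, while DESeq2 and one fit of all 3 groups called all 3 genes.

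Orm1 (ENSRNOG00000007886, chromosome 5, 79179417-79182820) showed the widest spread within the DEN model group. It was at 332, 550.2 and 464 CPM in N1, N3 and N12 and at 176, 1041 and 111 CPM in M13, M17 and M24. So M13 and M24 lay below all normal control rats and M17 above all of them, a 9.34-fold span within the group, where the normal control rats span 1.66-fold. The group means were 449 ± 110.1 and 443 ± 519 CPM (SD, n = 3), and the log2 fold change was -0.00 (SE 0.73, 95% interval -1.68 to 1.67, adjusted p = 0.996). Its sign turned under several settings, and without M17 it was -1.63 (adjusted p = 0.00371). The spans of the other genes in DEN model rats were 4.68-fold for Crp, 4.29-fold for Hp, 4.05-fold for A2m, 3.89-fold for Hpx, 3.31-fold for Serpina1, 2.82-fold for Ttr and 1.57-fold for Lcn2.

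A2m (ENSRNOG00000028896, chromosome 4, 154309426-154359137), the strong responder of the rat, was almost absent from normal control liver, at 1.48, 2.52 and 2.29 CPM in N1, N3 and N12. These values rest on 19, 30 and 30 counted reads. The DEN model rats had 19.0, 76.9 and 53.0 CPM in M13, M17 and M24, with no overlap and with M13 at the lowest value. This gave a log2 fold change of 4.58 (SE 0.53, 95% interval 3.37 to 5.79, adjusted p = 0.000417).

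Lcn2 (ENSRNOG00000013973, chromosome 3, 11414186-11417546) had the largest change of the 9 genes. N1, N3 and N12 were at 1.33, 1.17 and 2.21 CPM, from 17, 14 and 29 reads, and M13, M17 and M24 at 86.9, 55.3 and 71.5 CPM. The DEN model rats were close together, and M17, the highest of its group for each of the other 8 genes, was the lowest for Lcn2. Its log2 fold change was 5.51 (SE 0.31, 95% interval 4.81 to 6.20, adjusted p = 2.1e-05).

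Markers of several cell types moved with these results. The 8 hepatocyte markers summed to 20190.4 to 27435 CPM in normal control rats, to 4912, 11761 and 3882 CPM in M13, M17 and M24 and to 17412 to 18193 CPM after PZH, so M17 held the most hepatocyte marker mRNA of its group. Of the 8, 6 fell in DEN model rats and 3 rose after PZH. All 6 bile duct and progenitor cell markers rose in DEN model rats, from a sum of 13.4 to 21.1 CPM to 624, 235 and 754 CPM in M13, M17 and M24, and all 6 fell after PZH, to 80.8 to 107.5 CPM. Krt7 was at 0 in N1 and N3. Neutrophil markers summed to 1.83 to 2.26 CPM in normal control rats, 15.3 (M17) to 32.2 (M13) CPM in DEN model rats and 4.84 to 5.03 CPM after PZH, and of the 8 only S100a8, S100a9 and Csf3r had enough reads to be tested, all 3 higher in DEN model rats and lower after PZH. The defining granule genes Mpo, Elane, Camp and Ltf were at 0 counts in all normal control rats, and Ltf was also at 0 in all DEN model rats. Mpo and Camp had counts in every DEN model rat (means of 1.00 and 0.580 CPM), and Elane in M13 and M24. Stellate cell and fibroblast markers summed to 172 to 254, 858 (M17) to 2567 and 489 to 590 CPM in the 3 groups, with 5 of 6 higher in DEN model rats. Over all genes tested, 25.3% were higher and 20.5% lower in DEN model rats, and 8.72% and 10.3% after PZH. The part of these cell types in the changes of the 9 genes was not tested.

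The scaling matters for the size of each change. With library totals in place of TMM factors, the median over all genes of the log2 fold change in DEN model against normal control rats moved from 0.03 to 0.89, and the genes called from 6529, of which 3612 were higher, to 9084, of which 8126 were higher. The 5 called genes stayed called in the same direction, at 6.39 for Lcn2, 5.40 for A2m, -3.10 for Ttr, -2.22 for Crp and -1.28 for Alb.

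**Figure D3:**
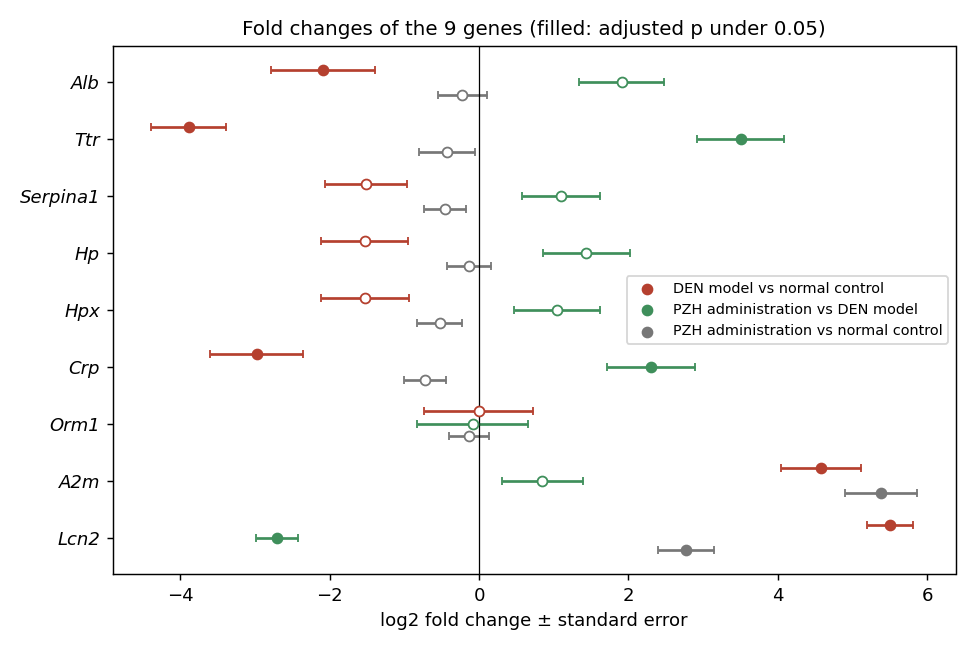
Points are log2 fold changes of the 9 genes in the 3 comparisons, bars are standard errors, and filled points have an adjusted p under 0.05. Red points (DEN model against normal control) lie left of 0 for Alb, Ttr, Serpina1, Hp, Hpx and Crp and right of 0 for A2m and Lcn2, and Orm1 lies at 0 in all comparisons within its error.

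The ratio of 1 gene to another within the same rat does not depend on library scaling. By FPKM, Ttr was 11.7% to 16.8% of Alb in normal control rats, 3.14% to 5.07% in DEN model rats and 9.08% to 17.1% after PZH. Ttr mRNA was thus lower relative to Alb in every DEN model rat. Crp was 3.64% to 5.19% of Alb in normal control rats, 1.46% to 3.13% in DEN model rats and 2.83% to 3.10% after PZH, so the PZH administration rats were also below every normal control rat. Orm1 showed the opposite, at 0.661% to 1.20%, 1.60% to 6.86% and 0.955% to 1.07% of Alb. Even M13 and M24, in which Orm1 itself was low, had more Orm1 per Alb than any normal control rat.

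Serpina1 was 14.4% to 18.1% of Alb in normal control rats, 18.2% to 29.0% in DEN model rats and 12.3% to 13.9% after PZH, the last range being below all normal control rats. Hp (16.6% to 19.3%, 18.3% to 35.9% and 16.7% to 21.0%) and Hpx (13.4% to 15.5%, 14.1% to 29.5% and 10.5% to 13.3%) had DEN model ranges that overlapped the normal control ones. For Hpx the range after PZH was also below all normal control rats. Lcn2 was 0.00294% to 0.00572% of Alb in normal control rats, 0.418% to 1.18% in DEN model rats and 0.0169% to 0.0409% after PZH, 3 ranges that did not overlap. For A2m they were 0.000659% to 0.00123%, 0.0410% to 0.170% and 0.0258% to 0.0771%, and the DEN model and PZH administration ranges overlapped. The smallest p of an exact permutation test with 3 rats against 3 is 0.1, so these ratios are given without one.

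**Figure D4:**
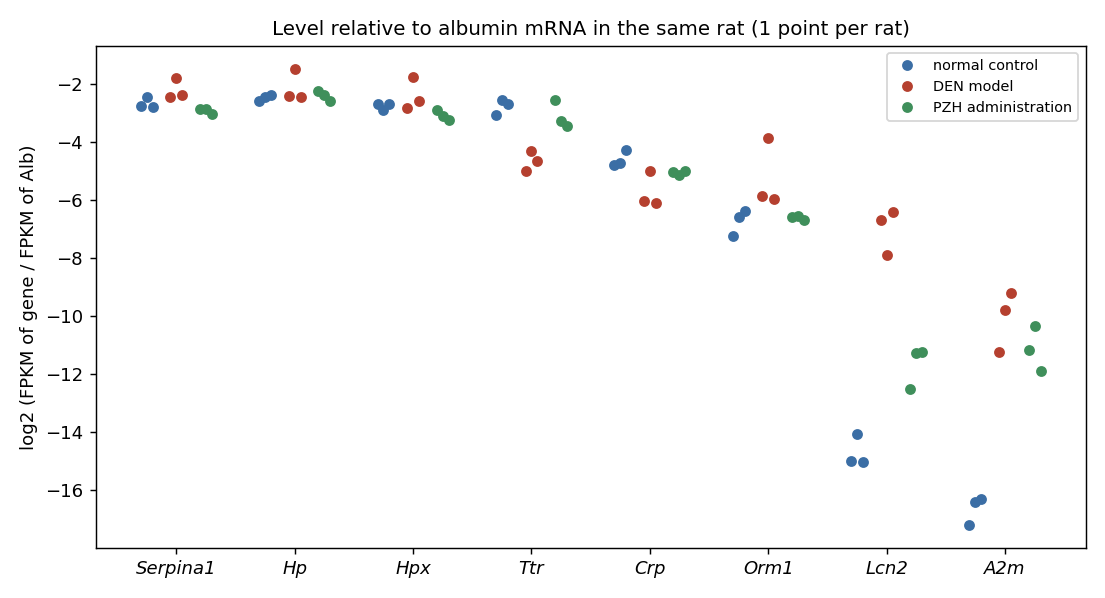
Each point is 1 rat and gives the log2 of a gene's FPKM over the FPKM of Alb in that rat. The red points of DEN model rats lie below the normal control rats for Ttr and Crp, and above them for Serpina1, Orm1, Lcn2 and A2m. For Serpina1 the gap is very small, with M13 at 18.2% of Alb and N12 at 18.1%.

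The second comparison asked how the livers of DEN rats given PZH differ from those given DEN alone. Ttr rose 11.3-fold and Crp 4.94-fold, and Lcn2 fell 6.54-fold. A2m, which had risen in DEN model rats, did not pass the test and had a higher mean after PZH. Alb, Hp, Serpina1 and Hpx had higher means that did not pass. In numbers, 2 of 9 genes were higher and 1 lower, against 8.72% and 10.3% of the 14272 genes tested, 19.1% in all. The study's thresholds called 1 higher (Ttr) and 1 lower (Lcn2), where over all genes they called 2.43%, with 1.08% higher and 1.35% lower. In CPM the groups did not overlap in 5 of the 9 genes and in 40.9% of all genes. The median log2 fold change stood at 1.10 for the 9 and 0.01 for all genes. The DEN model rats are the same ones as in the first comparison, so the 2 sets of changes are not independent.

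Ttr was at 5690.3, 2633 and 2116 CPM in G27, G28 and G42. All 3 were above the highest DEN model rat (529 CPM), and G27 stood apart from the other 2. The log2 fold change was 3.50 (SE 0.58, 95% interval 2.17 to 4.84, adjusted p = 0.0116), and without M13 it was 3.31 with an adjusted p of 0.0578. Crp was at 5892, 4291.5 and 4245 CPM, all above the 1922 CPM of M17. Its log2 fold change was 2.30 (SE 0.59, 95% interval 0.96 to 3.65, adjusted p = 0.0312), a call that was lost without any 1 of G27, G28, G42, M13 or M24 (adjusted p from 0.0676 to 0.128).

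Lcn2 was at 7.12, 13.1 and 12.1 CPM in G27, G28 and G42, below the lowest DEN model rat at 55.3 CPM. The log2 fold change was -2.71 (SE 0.28, 95% interval -3.35 to -2.06, adjusted p = 0.00513), and it stayed called without each rat in turn. A2m behaved differently, at 94.6, 129 and 39.3 CPM, a range that overlaps the 19.0 to 76.9 CPM of the DEN model rats. Its log2 fold change was 0.85 (SE 0.55, 95% interval -0.41 to 2.1, adjusted p = 0.306), so a fall of the size of that of Lcn2 lies outside the interval. The pair also differed within rats: Lcn2 was 369.7% to 2353% of A2m by FPKM in DEN model rats and 38.7% to 158% after PZH, with 240.05% to 497% in normal control rats.

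Alb was at 98339, 75950.4 and 68788 CPM in G27, G28 and G42, more than in any DEN model rat. The log2 fold change was 1.91 (SE 0.57, 95% interval 0.60 to 3.21, adjusted p = 0.0503), just outside the threshold, and it passed in DESeq2 (adjusted p = 1.7e-07), with library totals (0.0225), with all 3 groups in one fit (0.0319) and without M17 (0.00738).

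Hp was at 11791, 8304 and 6547 CPM in the same 3 rats, all above M17 at 6305 CPM. By FPKM G42 (5223) was below M17 (6488), so this separation depends on the scaling. The log2 fold change of Hp was 1.44 (SE 0.59, 95% interval 0.09 to 2.79, adjusted p = 0.122). Serpina1 stood at 12517, 9757 and 7848 CPM, and Hpx at 9910.1, 6700.3 and 5444 CPM. For both, M17 lay within the PZH administration range. Their log2 fold changes were 1.10 (SE 0.52, 95% interval -0.09 to 2.29, adjusted p = 0.172) and 1.05 (SE 0.57, 95% interval -0.27 to 2.36, adjusted p = 0.232). Orm1 was at 507, 400 and 324 CPM, between M17 and the other 2 DEN model rats, with a log2 fold change of -0.09 (SE 0.74, 95% interval -1.79 to 1.62, adjusted p = 0.949). Left without M17, the comparison called Alb (2.21), Hp (2.27), Hpx (1.88), Serpina1 (1.74) and Orm1 (1.52) as higher beside Ttr and Crp. With any 1 other rat left out, none of Alb, Hp, Hpx, Serpina1 and Orm1 was called.

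The third comparison set PZH administration against normal control rats, to see which of the mRNAs still differed when both DEN and PZH had been given. A2m was 41.7-fold and Lcn2 6.84-fold higher, and 7 of the 9 genes did not pass. Of the 13348 genes tested 5.21% were called, 4.07% higher and 1.15% lower, against 2 of 9 higher and 0 lower. The study's thresholds called the same 2 of 9, where over all genes they called 2.32%, with 2.16% higher and 0.165% lower. The groups did not overlap in 3 of the 9 genes (A2m, Lcn2 and Crp) and in 24.2% of all genes. The median log2 fold change was -0.22 for the 9 and -0.02 for all genes.

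A2m, at 39.3 to 129 CPM after PZH against 1.48 to 2.52 CPM in normal control rats, had a log2 fold change of 5.38 (SE 0.48, 95% interval 4.29 to 6.48, adjusted p = 0.00210). For Lcn2 it was 2.77 (SE 0.37, 95% interval 1.92 to 3.62, adjusted p = 0.00606). All 3 PZH administration rats had less Crp (4245 to 5892 CPM) than any normal control rat (6770.4 to 9608 CPM). That difference, -0.72 (SE 0.28, 95% interval -1.35 to -0.09), had an adjusted p of 0.204 in edgeR and of 0.0386 in DESeq2, and Crp was the 1 gene lower at an unadjusted p under 0.05. The log2 fold changes of the other 6 ran from -0.53 (Hpx) to -0.13 (Orm1), with Orm1 and Hp turning positive under library totals. For Alb it was -0.22 (95% interval -0.97 to 0.52) and for Ttr -0.43 (95% interval -1.28 to 0.42). Decreases beyond these lower bounds fall outside the intervals, and smaller ones remain within them.

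Other plasma proteins were read from fixed lists for comparison. Over all genes tested, 25.3% were higher and 20.5% lower in DEN model than in normal control rats. The shares were 8.72% and 10.3% in PZH administration against DEN model rats, and 4.07% and 1.15% against normal control rats. Counts from the lists at an adjusted p under 0.05 are to be read beside these shares. For all counts given at an unadjusted p under 0.05, no share over all genes was worked out. Those counts therefore cannot show an excess or a deficit. Of 19 other carriers and constitutive plasma proteins tested in DEN model against normal control rats, 14 fell and 2 rose (median log2 fold change -2.37). Igfals, the subunit that keeps insulin-like growth factors in the circulation, fell from 343 to 20.2 CPM (log2 fold change -4.06, SE 0.64, adjusted p = 0.00155). Serpina6, the corticosteroid carrier, fell from 987 to 101 CPM (-3.27, SE 0.35, adjusted p = 0.000317). A1bg, a plasma glycoprotein, rose from 0.526 to 8.59 CPM (4.03, SE 0.79, adjusted p = 0.00389) and Serpina7, the thyroxine-binding globulin, from 6.52 to 16.1 CPM (1.33, SE 0.30, adjusted p = 0.00795). These moved against the direction of Ttr, another thyroxine carrier.

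After PZH 13 of the 19 were higher than in DEN model rats, with Igfals (2.81, adjusted p = 0.0374) and Apom (2.57, adjusted p = 0.0144), a lipoprotein that carries sphingosine-1-phosphate, as the largest changes, and Gc (1.63), the vitamin D carrier, and Serpina7 (1.02, adjusted p = 0.0144) as the smallest. None was lower, also at an unadjusted p under 0.05 and in DESeq2. Serpina7 thus rose in DEN model rats and was higher again after PZH, at 32.2 CPM. Against normal control rats A1bg (3.56, adjusted p = 0.0156) and Serpina7 (2.31, adjusted p = 0.00588) were higher and Serpina6 (-1.36, adjusted p = 0.0356) and Lcat (-1.10, adjusted p = 0.0187), the cholesterol-esterifying enzyme of plasma, lower. At an unadjusted p under 0.05, 2 carriers were higher and 9 lower than in normal control rats (median log2 fold change of the 19, -0.53). Without the share over all genes at this looser rule, these counts are not read as a result about the carriers.

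Other positive acute-phase genes, 21 identifiers tested, were mostly lower in DEN model rats: 14 fell and 1 rose (median log2 fold change -1.48). The 1 that rose was Pla2g2a, a secreted phospholipase (2.47, SE 0.77, adjusted p = 0.0289). Hamp, which encodes the iron hormone hepcidin, fell from 525 to 65.3 CPM (-2.99, SE 0.26, adjusted p = 0.000142). The smallest called fall was in Cd14 (-0.85, SE 0.27, adjusted p = 0.0338), and its sign turned with library totals. Complement factor B (Cfb) has 2 identifiers, with log2 fold changes of -5.85 and -1.96. Reads of 1 gene may be split between them, so both values are uncertain. With library totals the list had 8 lower and 3 higher. Without M17 none was called higher by edgeR and 16 were lower, while DESeq2 on all rats called 2 higher and 17 lower.

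After PZH 3 of these were higher than in DEN model rats, namely Itih3 (1.84, adjusted p = 0.0347), which stabilises hyaluronan, Apcs (1.18, adjusted p = 0.0229), the pentraxin related to Crp, and Il1rn (0.91, adjusted p = 0.0332), the IL-1 receptor antagonist. None was lower, also at an unadjusted p under 0.05 and in DESeq2, which called 10 higher. Without M17 edgeR called 11 higher. None of the 21 was called by edgeR against normal control rats. At an unadjusted p under 0.05, 1 was higher and 2 lower. DESeq2 called 1 higher and 2 lower, where over all 13348 genes tested it called 1320, of which 895 were higher.

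**Figure D5:**
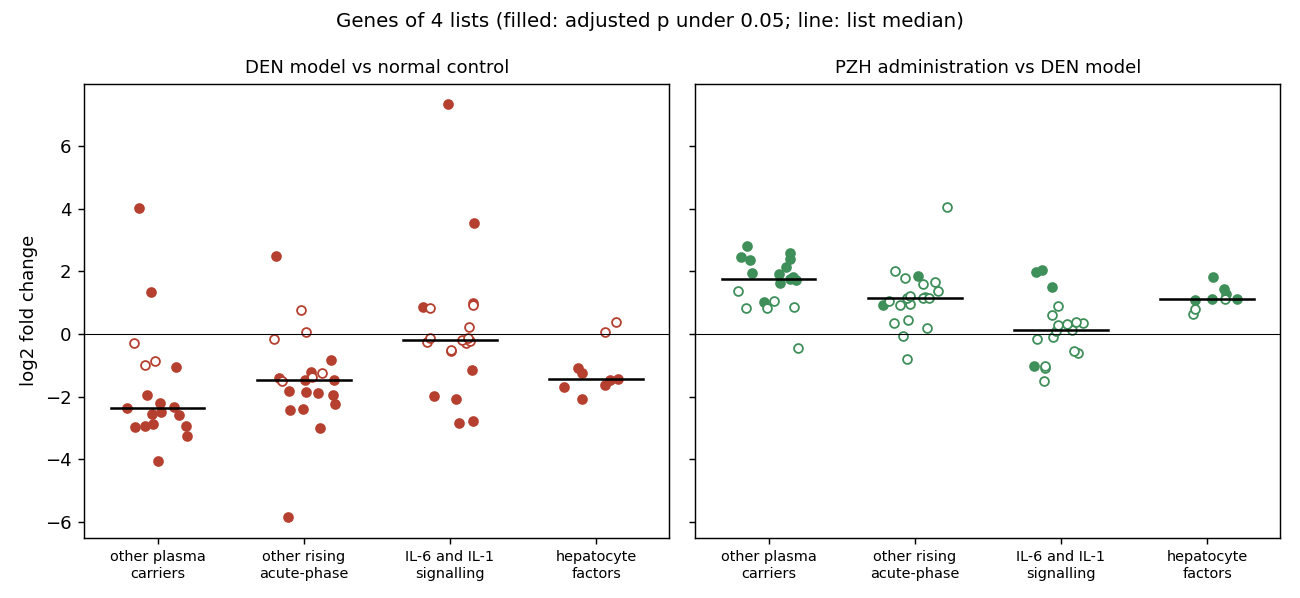
Each point is the log2 fold change of 1 gene of 4 lists, filled where the adjusted p is under 0.05, and lines are list medians. In DEN model against normal control rats (left) the medians of other plasma carriers and other positive acute-phase genes lie at -2.37 and -1.48, and against DEN model rats (right) the PZH administration medians lie at 1.77 and 1.14. The highest point on the left is Lif, whose value was fitted against 0 counts in normal control rats and is not a measured fold.

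The cytokine route to these genes was read from a list of 23 IL-6 and IL-1 family genes, of which 20 had enough reads in the DEN model and normal control rats. There 4 were higher and 5 lower (median log2 fold change -0.20), near the 45.8% called over all genes (25.3% higher, 20.5% lower). Il6 itself had 0 counts in all normal control and PZH administration rats and a mean of 0.507 CPM in DEN model rats, too little to be tested. Lif, an IL-6 family cytokine, had 0 counts in all normal control rats and a mean of 1.13 CPM in DEN model rats, at least 4.49-fold higher than the floor of 3 counts per library (adjusted p = 0.00200).

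The receptors moved apart. Osmr, the oncostatin M receptor, rose from 4.39 to 50.3 CPM (3.53, SE 0.19, adjusted p = 2.1e-05), whereas Il6r, the IL-6 receptor, fell from 316 to 43.4 CPM (-2.85, SE 0.28, adjusted p = 0.000229). Il1a, an IL-1 cytokine, fell from 12.6 to 1.83 CPM (-2.78, SE 0.42, adjusted p = 0.00124). With library totals 8 of the 20 genes turned sign and 8 were higher and 4 lower, so no direction is given for the list.

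After PZH Il1a (2.05, adjusted p = 0.00919), Il6r (1.98, adjusted p = 0.00891) and Il1r1 (1.51, adjusted p = 0.0254), the IL-1 receptor, were higher than in DEN model rats, and Osmr was lower (-1.04, adjusted p = 0.0176), out of 19 tested. At an unadjusted p under 0.05, with no share over all genes to compare, 4 were higher and 5 lower. DESeq2, like edgeR without M17, called 4 higher and 4 lower. The list median was 0.12 on the log2 scale, and with library totals, where 3 were higher and 6 lower, it was -0.57. Against normal control rats 1 of 18 was higher, Osmr (2.46, adjusted p = 0.00374), and 1 lower, Cebpb (-1.68, adjusted p = 0.0104), which encodes C/EBP beta. Cebpb was also lower in DEN model than in normal control rats (-1.99, SE 0.28, adjusted p = 0.000892). Its change after PZH against DEN model rats was not called (0.34, adjusted p = 0.238).

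Transcription factors that keep plasma protein genes active in hepatocytes were mostly lower in DEN model rats. Of 9 tested, 7 fell and none rose, with none higher at an unadjusted p under 0.05 or in DESeq2 (median log2 fold change -1.45). With library totals 4 were lower and 2 higher. The largest falls were in Foxa3 (-2.09, SE 0.38, adjusted p = 0.00295) and Cebpa (-1.69, SE 0.23, adjusted p = 0.000782), and the smallest in Nr5a2 (-1.24, adjusted p = 0.00595) and Onecut1 (-1.08, adjusted p = 0.0128). After PZH 6 were higher than in DEN model rats, among them Foxa3 (1.83, adjusted p = 0.0193), Foxa1 (1.43, adjusted p = 0.0303), Nr5a2 (1.11, adjusted p = 0.0276) and Prox1 (1.10, adjusted p = 0.0440), and with library totals 2 were. None of the 9 was called by edgeR against normal control rats, 1 was higher and 1 lower at an unadjusted p under 0.05, and DESeq2 called 1 lower.

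Receptors that bind or clear the plasma proteins or their cargo were mixed. In DEN model rats 4 of 9 fell: Asgr1 (-2.24, SE 0.36, adjusted p = 0.00159) and Asgr2 (-2.24, SE 0.33, adjusted p = 0.00108), the subunits of the receptor that takes up desialylated glycoproteins, and Lrp1 (-1.50, adjusted p = 0.00584), which takes up protease complexes of A2m and haem complexes of Hpx, and Slc22a17 (-1.10, adjusted p = 0.0106), a receptor for Lcn2. Cubn, an uptake receptor that binds albumin in kidney and gut, rose from 0.448 to 8.27 CPM (4.20, SE 1.10, adjusted p = 0.0139). Asgr1 (1.82), Asgr2 (1.76) and Lrp2 (1.09), a partner of Cubn, were higher after PZH than in DEN model rats, with adjusted p of 0.0216, 0.0184 and 0.0347. Cubn itself had a log2 fold change of -3.05 (SE 0.93, adjusted p = 0.0538) after PZH, and Hmox1, which encodes the haem-degrading enzyme haem oxygenase 1, was at 37.1 against 94.4 CPM (-1.31, SE 0.44, adjusted p = 0.0696). In this comparison DESeq2 called 4 higher and 2 lower, edgeR with library totals 2 higher and 2 lower, and edgeR without M17 4 higher and 1 lower. With library totals DEN model rats had 2 of the 9 higher and 3 lower than normal control rats. None of the 9 was called against normal control rats by edgeR or DESeq2, or at an unadjusted p under 0.05.

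Alb belongs to a family of 4 genes. In DEN model rats 3 of them fell: Afm (-2.94, adjusted p = 0.00244), Gc (-2.19, adjusted p = 0.0110) and Alb. The fourth, Afp, the fetal member and a marker of liver tumours, had 14.9 CPM in normal control, 76.2 in DEN model and 17.5 CPM in PZH administration rats. The DEN model value of 2.38 on the log2 scale, relative to normal control, had an SE of 1.03 and an adjusted p of 0.0907, and it did not pass in the other comparisons. Afp was called higher in DEN model than in normal control rats with library totals and without M17, and lower after PZH than in DEN model rats with library totals. After PZH 2 of the 4, Afm (2.37, adjusted p = 0.0203) and Gc (1.63, adjusted p = 0.0450), were higher than in DEN model rats. Against normal control rats none was called by edgeR or DESeq2, with 1 lower at an unadjusted p under 0.05.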

How the data were processed

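Liver mRNA libraries of 9 rats were sequenced by the authors on an Illumina NovaSeq instrument. The deposited table holds raw counts per gene and rat, whole numbers without normalization, which were used for every main test. It also holds FPKM values, which the authors made by dividing counts by transcript length and library total. The submitters' processing notes name fastp, HISAT2 2.1.0, StringTie 1.3.3b and edgeR 3.30.3, and the genome build and annotation are not given in the sources used here. The table's columns of group means, fold changes, P and Q values were not used.

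Genes were kept by filterByExpr, scaled by TMM and tested with the quasi-likelihood test of edgeR 4.0.16 in R 4.3.3, with only the 6 rats compared in the fit and no covariates, and p-values were adjusted by the Benjamini-Hochberg method over all genes tested. The steps were tested on simulated data. CPM values per rat use TMM factors over all 9 rats. Alternatives were DESeq2 1.42.0, library totals, one fit of all 3 groups, a minimum of 10 counts per rat, no filter, limma 3.58.1 on log2(FPKM + 1), the study's thresholds and leaving out each rat. The 10 genes and all lists were chosen with earlier results of these data known. Named from each list, the marker lists aside, were the called genes with the 2 largest and 2 smallest log2 fold changes per comparison. Other genes that are named define a marker or were singled out after their values were seen. Of the listed genes, Ahsg, Cd79a, Kng2, Mug1, Pecam1 and Serpina3n were not matched by symbol and not analysed here, and 2 others were left out of the lists, their counts and the named genes and are not reported here.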

Additional observations from a re-analysis of the deposited data

How the results depend on the processing

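No paired analysis was possible because the groups share no replicate numbers. In DEN model against normal control rats, 3 of the 9 genes were lower, 6 in DESeq2, 6 with all 3 groups in one fit, 1 at the study's thresholds and from 2 to 7 with 1 rat left out (7 without M17). In PZH administration against DEN model rats, 2 were higher, 5 in DESeq2, 1 at the study's thresholds and from 0 to 7 with 1 rat left out (0 without M13, 7 without M17, 1 without any of G27, G28, G42 and M24). Without M13 the genes called over the whole table also dropped, from 2722 to 271. They dropped as well without G27 (2213), G28 (1178), G42 (1221) and M24 (725). In this comparison DESeq2 with all rats called 3781 genes (1812 higher) and edgeR without M17 called 3319 (1594 higher). In DEN model against normal control rats the whole table had 6529 called (3612 higher), 6842 (3753 higher) in DESeq2 and 6584 (3659 higher) without M17. In PZH administration against normal control rats 0 were lower, 1 (Crp) in DESeq2 and from 0 to 1 with 1 rat left out, the 1 being Ttr without G27 (-0.99, adjusted p = 0.0486). There the whole table had 696 called (543 higher), 1320 (895 higher) in DESeq2 and 1326 (787 higher) without G27. Counts of genes higher in DEN model or PZH administration than in normal control rats stayed at 2, and 1 gene was lower in PZH administration than in DEN model rats, under every alternative. Orm1 turned sign most often. In DEN model against normal control rats its log2 fold change was 0.72 with library totals, 0.0196 without a filter, 0.0846 with at least 10 counts per rat, 0.19 in limma on FPKM and from -1.63 (without M17) to 0.46 (without M24) with 1 rat left out, positive without M13, M24, N12 or N3. Against DEN model rats PZH administration gave -0.54 (without M24) to 1.52 (without M17), positive also without G42. Against normal control rats it gave 0.10 with library totals, 0.11 in limma and -0.33 (without N1) to 0.0655 (without N3), positive also without G42. Hp turned in the last comparison, to 0.0845 with library totals and 0.0533 in limma, and ran from -0.40 (without G27) to 0.0387 (without G42). The cause was not tested. Library totals moved the median over all genes from 0.01 to -0.67 (log2) in PZH administration against DEN model rats, with 6252 genes called, 556 of them higher, in place of 2722 and 1245, and from -0.02 to 0.21 against normal control rats, with 909 called, 818 of them higher, in place of 696 and 543. Depth did not limit the abundant genes, while Lcn2 and A2m rest on 14 to 30 reads in each normal control rat.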

Other observations

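Genes whose pattern over the 9 rats was most like that of Alb, A2m and Lcn2 were looked up among 7684 genes, by the root mean square difference of log2(CPM + 1) after each gene was centred on its own mean. Nearest to Alb were Gpr146 (0.132), Plg (0.148), which encodes plasminogen, and Asgr2 (0.152). Nearest to Lcn2 were Dclk1 (0.279), Dcdc2 (0.322) and Anxa2 (0.329). A2m had no near neighbour by comparison, with Akr7a3 (0.871), Smoc2 (0.894) and Fam111a (0.941) as its closest. The rats share group and library scaling in all these genes, and the values describe likeness only.

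Macrophage and Kupffer cell markers (7 genes) summed to 501 to 908 CPM in normal control, 417 to 541 in DEN model and 237 to 557 CPM in PZH administration rats. Lower in DEN model than in normal control rats were 3: Marco (-2.72), Vsig4 (-1.54) and Clec4f (-1.28). After PZH they stood at 0.83, 0.84 and 0.59 against DEN model rats, not called. A different 3 were lower after PZH than in DEN model rats: Csf1r (-0.99), Cd68 (-0.95) and Adgre1 (-0.84). In DEN model against normal control rats these had 0.53, 0.50 and 0.57, not called. With library totals 3 of the 7 were higher and 1 lower in DEN model rats, and the median log2 fold change went from -0.11 to 0.75. Endothelial markers (5 genes) summed to 299 to 378, 167 to 294 and 264 to 362 CPM, with 3 lower and 1 higher in DEN model rats and 1 lower and 1 higher after PZH. With library totals 1 was higher and 1 lower in DEN model rats, and 1 was lower and none higher after PZH. Lymphocyte markers (5 genes) summed to 24.4 to 46.0, 78.2 to 117 and 37.0 to 45.3 CPM, with 3 higher in DEN model rats and 1 of 4 tested lower after PZH (median log2 fold change -1.46). Against normal control rats, PZH administration rats still had all 6 bile duct and progenitor markers and 3 of 6 stellate and fibroblast markers higher. Over all genes 4.07% were higher there. The shares over all genes were 25.3% higher and 20.5% lower in DEN model rats, and 8.72% and 10.3% after PZH against DEN model rats.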
